A study of Rattus norvegicus with 12 samples.

Results

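The CC chemokines are small secreted proteins with a pair of adjacent cysteines near the amino terminus, and they are read here with their receptors across 4 groups of rat brain RNA libraries. The set consists of 9 genes chosen by name, the ligands Ccl2, Ccl7, Ccl3, Ccl4, Ccl5, Ccl6 and Ccl20 and the receptors Ccr1 and Ccr2. Of these, 8 were analysed out of 37209 gene symbols in the count table. Ccr2 was not analysed here. All animals were Sprague Dawley rats at postnatal day 21. The groups were MCAO (stroke by occlusion of the middle cerebral artery, which supplies much of the cerebral hemisphere), sham LN, pontine infarction (a stroke of the pons in the brainstem) and sham PN, with 3 libraries each. MCAO was set against sham LN and pontine infarction against sham PN, because the codes of each pair begin with the same letter. The labels name the tissue as brain and state neither the dissected region, the time after the stroke nor what the sham operation involved. One MCAO column carries a number that no sample title has, and it is called the unnumbered MCAO library.

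CC chemokines act as gradients that leukocytes follow out of the blood and through tissue. They bind receptors with 7 membrane passes that signal through inhibitory G proteins, and one ligand often binds several receptors. In injured brain they are made by microglia, astrocytes, endothelium and by the leukocytes that have already entered. Ccl2 and Ccl7 draw monocytes through Ccr2, Ccl3 and Ccl5 act on Ccr1, and Ccl20 is the ligand of Ccr6.

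Libraries held 19805815 to 40400676 counts. Levels are given in CPM, counts brought to a common library total after scaling by the trimmed mean of M values, and changes were tested with the quasi-likelihood test of edgeR over 17008 genes, with adjusted p-values over all of them and a threshold of 0.05. All 8 genes had enough counts to be tested, but most reached that minimum only through the stroke libraries. The labels do not say that the libraries of a group are separate animals, beyond 3 rats for each stroke, so p-values measure the spread between these libraries. In all libraries the neuronal, astrocyte and oligodendrocyte marker sums were high, at no less than 1574, 2143 and 7163 CPM. Gpr34, a microglial gene, was listed at 0 in every library although the microglial gene P2ry12 was not, so a symbol listed at 0 in this table need not be silent.

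Most of the ligand genes lie beside each other. In the current rat gene table Ccl2 and Ccl7 are neighbours on chromosome 10, followed by Ccl11 and Ccl12, and further along the same chromosome Ccl5, Ccl9, Ccl6, Ccl3 and Ccl4 follow in that order, with no protein-coding gene between Ccl9, Ccl6, Ccl3 and Ccl4. Ccl20 lies on chromosome 9. Ccr1 lies on chromosome 8 beside Ccr3 and Xcr1. Promoter windows matched 4 of the 8 genes, Ccl7, Ccl6, Ccl20 and Ccr1, and all 4 are printed. Each window holds 250 bases before and 50 bases after the start of transcription on the gene's strand (RefSeq, build GRCr8, which is newer than the build named for the counts). Capitals mark matches, on either strand, to the NF-kB pattern GGGA, any 4 bases and CC, the AP-1 pattern TGA, any base and TCA, the TATA box TATAAA and the ETS core GAGGAA that PU.1 binds in myeloid cells.
Ccl7 (chr10:67513845-67514144, plus strand): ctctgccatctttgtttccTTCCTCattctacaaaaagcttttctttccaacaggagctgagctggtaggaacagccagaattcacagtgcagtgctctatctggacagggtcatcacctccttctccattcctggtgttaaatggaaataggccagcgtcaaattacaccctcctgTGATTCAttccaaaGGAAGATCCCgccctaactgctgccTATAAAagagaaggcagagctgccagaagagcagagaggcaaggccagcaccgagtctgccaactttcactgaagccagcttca
Ccl6 (chr10:68883317-68883616, minus strand): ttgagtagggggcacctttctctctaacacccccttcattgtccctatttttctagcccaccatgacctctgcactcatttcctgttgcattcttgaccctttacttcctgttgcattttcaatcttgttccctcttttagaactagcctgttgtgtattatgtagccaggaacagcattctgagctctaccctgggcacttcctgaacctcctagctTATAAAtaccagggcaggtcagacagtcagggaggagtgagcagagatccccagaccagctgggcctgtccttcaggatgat
Ccl20 (chr9:91836909-91837208, plus strand): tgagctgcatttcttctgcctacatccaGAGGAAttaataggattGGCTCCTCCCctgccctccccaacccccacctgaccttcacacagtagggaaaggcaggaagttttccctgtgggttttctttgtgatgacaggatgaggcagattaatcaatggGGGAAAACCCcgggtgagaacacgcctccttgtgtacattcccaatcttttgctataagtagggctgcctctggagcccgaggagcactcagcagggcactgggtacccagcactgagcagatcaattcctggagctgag
Ccr1 (chr8:132439217-132439516, minus strand): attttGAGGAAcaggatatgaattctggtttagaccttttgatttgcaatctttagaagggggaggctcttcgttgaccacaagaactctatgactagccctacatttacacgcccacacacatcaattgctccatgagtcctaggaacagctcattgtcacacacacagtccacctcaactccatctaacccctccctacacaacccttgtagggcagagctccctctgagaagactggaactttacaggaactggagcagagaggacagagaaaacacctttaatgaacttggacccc

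In the Ccl7 window the AP-1 match began 73 bases and the NF-kB match 59 bases before the start, with the TATA box 34 bases before it. The window of Ccl20 held an NF-kB match 90 bases before the start and another 205 bases before it. The Ccl6 window held a TATA box 32 bases before the start and no match to the NF-kB pattern, the AP-1 pattern or the ETS core. The Ccr1 window held only an ETS core, 245 bases before the start. The ETS core was in 3 of the 4 windows, the NF-kB pattern in 2, the TATA box in 2 and the AP-1 pattern in 1. Of 33469 promoter windows in the same table, 19.3% held the NF-kB pattern, 7.33% the AP-1 pattern, 14.2% the TATA box and 27.6% the ETS core. The interferon response pattern, GAAA at both ends of any 2 bases, present in 3.92% of windows, was in none of the 4. These are matches of letters, and binding was not measured.

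The same 6 of the 8 genes rose after both strokes. After MCAO Ccl2, Ccl7, Ccl3, Ccl4, Ccl6 and Ccr1 rose and Ccl5 and Ccl20 did not pass, where 12.5% of all tested genes rose and 6.07% fell. After pontine infarction the same 6 rose, where 3.21% of all tested genes rose and 0.870% fell. Of these 6, Ccl2, Ccl7, Ccl3, Ccl4 and Ccr1 had 3, 1, 10, 1 and 12 counts over sham LN. Over sham PN they had 13, 15, 6, 5 and 18. They entered the test through the stroke libraries, so the all-gene shares are no measure for them. In bulk tissue a larger number of cells and more RNA per cell cannot be told apart. The median fitted log2 change of the 8 genes was 10.39 after MCAO and 6.89 after pontine infarction, beside medians of -0.0018 and -0.083 over all tested genes. With genes that had at most 3 sham counts set at their count ratio or lower bound, these medians were 9.37 and 6.56. The 6 rises after MCAO passed whichever of the 6 compared libraries was left out. Those after pontine infarction depended on single libraries. Of the 6, 3 passed without pontine infarction replicate 1 (Ccl2, Ccl3 and Ccl6) and 1 passed without sham PN replicate 1 (Ccl6). Without sham PN replicate 2 or without sham PN replicate 3, 0 passed. The calls over all genes moved in the same way, with 694 in the fit of all libraries, 182 without sham PN replicate 1, 52 without replicate 2 and 6 without replicate 3. Without sham PN replicate 2 or 3 edgeR gave 6 of the 8 genes at an unadjusted p under 0.05 in either case. These need not be the 6 genes that rose, and the all-gene share at that p was not determined for these fits. In the fit of all libraries edgeR gave 7 of the 8, beside 21.6% of all tested genes. By limma voom 3 of the 8 genes passed after MCAO (Ccl3, Ccl6 and Ccr1) and 0 after pontine infarction, and by DESeq2 the count was 6 for both. At an unadjusted p under 0.05 limma voom gave 2 of the 8 after pontine infarction, Ccl3 and Ccl6, beside 21.3% of all tested genes.

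**Figure D1:**
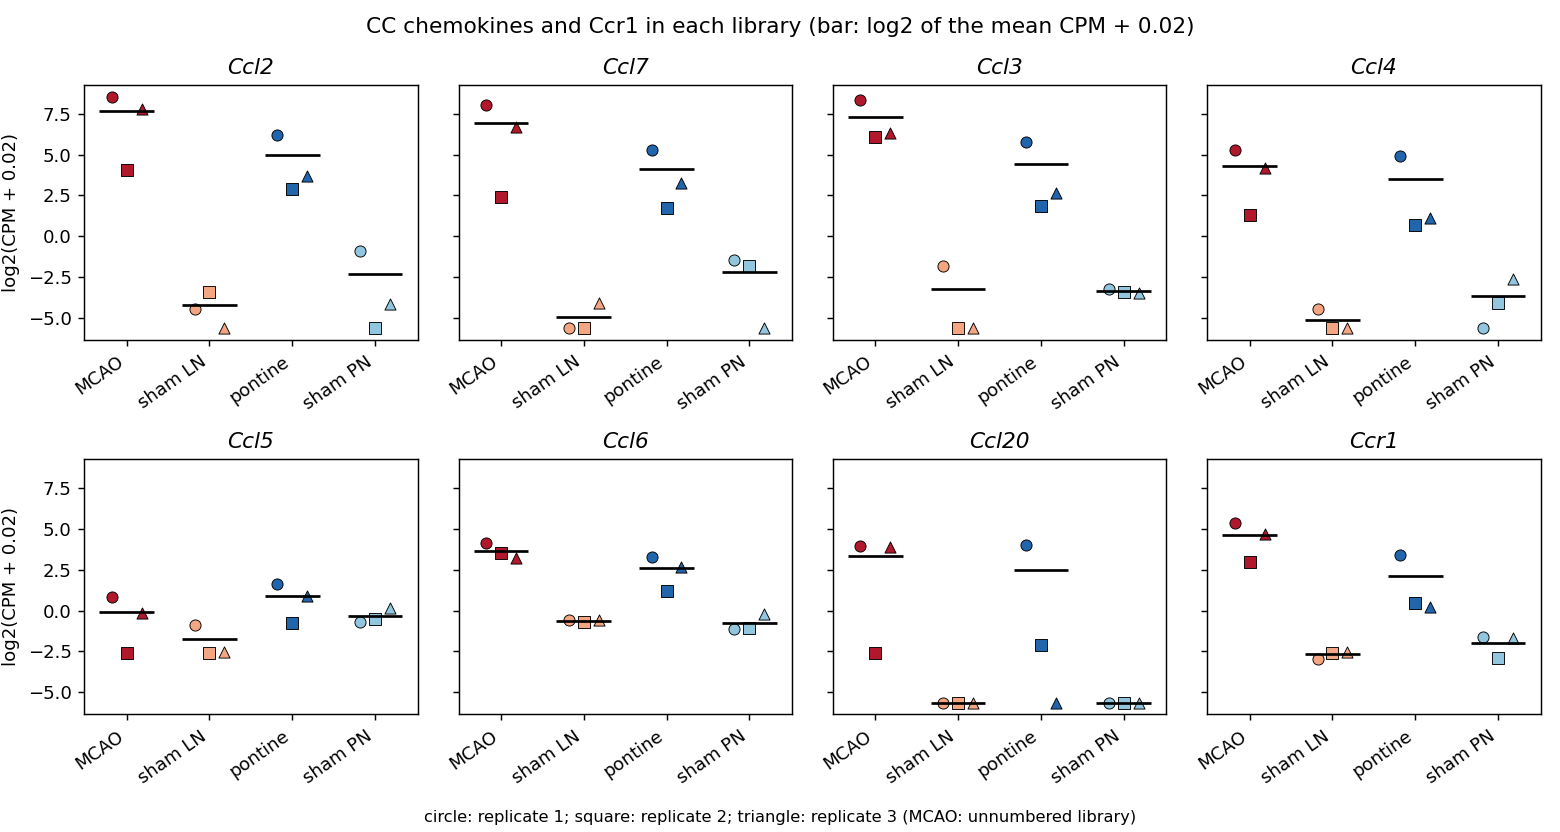
Levels of the 7 ligands and Ccr1 in each of the 12 libraries, as log2 of CPM plus 0.02 on the vertical axis, with the groups MCAO, sham LN, pontine infarction and sham PN from left to right, a symbol for each library and a bar at the log2 of the group's mean CPM plus 0.02. For Ccl2, Ccl7, Ccl3, Ccl4, Ccl6 and Ccr1 every stroke library lies above every library of its shams, and MCAO replicate 1 and pontine infarction replicate 1 are the highest of their groups for all 8 genes.

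Ccl2, the chief monocyte attractant of injured tissue (also called MCP-1), was nearly absent from shams and abundant after both strokes. It had 377 and 16.8 CPM in MCAO replicates 1 and 2 and 224 CPM in the unnumbered MCAO library, against 0.0263, 0.0741 and 0 CPM in sham LN replicates 1 to 3. The sham LN libraries held 3 Ccl2 counts in all and the MCAO libraries 12807, a ratio of 6299 (95% counting interval 2155 to 30548, edgeR adjusted p = 0.00244). Every MCAO library lay far above every sham LN library, and MCAO replicate 2 stood well below the other MCAO libraries. After pontine infarction Ccl2 had 74.1, 7.34 and 13.1 CPM in replicates 1 to 3, against 0.516, 0 and 0.0359 CPM in sham PN replicates 1 to 3 (log2 change 7.49 ± 1.49 SE, edgeR adjusted p = 0.0212). The groups did not overlap, as held in this direction for 13.3% of all tested genes in the pontine comparison and 20.4% in the MCAO comparison. Without sham PN replicates 1, 2 and 3 in turn the edgeR adjusted p was 0.0569, 0.112 and 0.126. Without sham PN replicate 1, which held 12 of the 13 Ccl2 counts of its group, the fitted log2 change was 10.41. By limma voom Ccl2 did not pass after MCAO (adjusted p = 0.127).

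Ccl7, a second monocyte attractant (MCP-3) encoded next to Ccl2, followed the same order of libraries. It had 259 and 5.38 CPM in MCAO replicates 1 and 2 and 105 CPM in the unnumbered MCAO library, against 0, 0 and 0.0382 CPM in sham LN replicates 1 to 3. With 7652 counts over MCAO and 1 over sham LN, the ratio was 11291 (95% counting interval 2026 to 446010, edgeR adjusted p = 0.00315). These intervals cover counting error only, and the spread among the MCAO libraries, 48.1-fold between the highest and the lowest, is not part of them. In pontine infarction replicates 1 to 3 Ccl7 had 39.5, 3.37 and 9.56 CPM, against 0.344, 0.264 and 0 CPM in sham PN replicates 1 to 3 (log2 change 6.44 ± 1.51 SE, edgeR adjusted p = 0.0383). The pontine libraries all lay above the shams, but the call was lost without each of pontine infarction replicates 1 and 3 and sham PN replicates 1, 2 and 3 (edgeR adjusted p = 0.0962, 0.0648, 0.100, 0.152 and 0.172). By limma voom Ccl7 did not pass after MCAO (adjusted p = 0.178). Ccl7 counts were 68.7% and 32.1% of Ccl2 counts in MCAO replicates 1 and 2 and 46.7% in the unnumbered library, and 53.3%, 45.9% and 72.7% in pontine infarction replicates 1 to 3. The proportion of these neighbouring genes therefore overlapped between the strokes (difference in mean log2 ratio -0.26, exact two-sided permutation p = 0.5, n = 3 each).

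Ccl3 and Ccl4, also called MIP-1 alpha and MIP-1 beta, are attractants of monocytes and T cells, and Ccl3 binds Ccr1. Ccl3 had 319 and 68.7 CPM in MCAO replicates 1 and 2 and 80.4 CPM in the unnumbered library, against 0.263, 0 and 0 CPM in sham LN replicates 1 to 3 (log2 change 10.46 ± 1.47 SE, edgeR adjusted p = 0.00229). All 10 sham LN counts of Ccl3 came from replicate 1, and without it the fitted log2 change was 14.97. Unlike Ccl2, Ccl3 was nearly as high in MCAO replicate 2 as in the unnumbered library. After pontine infarction Ccl3 had 53.6, 3.55 and 6.28 CPM in replicates 1 to 3, against 0.0859, 0.0755 and 0.0718 CPM in sham PN replicates 1 to 3 (log2 change 8.00 ± 1.48 SE, edgeR adjusted p = 0.0163). Ccl3 was the only one of the 8 genes for which all MCAO libraries also lay above all pontine infarction libraries. The share of all tested genes for which this held was not determined, so it is not shown to be particular to Ccl3. Without sham PN replicates 1, 2 and 3 in turn its edgeR adjusted p was 0.0651, 0.0941 and 0.109.

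Ccl4 had 38.6 and 2.42 CPM in MCAO replicates 1 and 2 and 18.1 CPM in the unnumbered library, against 0.0263, 0 and 0 CPM in sham LN replicates 1 to 3. The 1225 MCAO counts and the single sham LN count give a ratio of 1808 (95% counting interval 324 to 71450, edgeR adjusted p = 0.006). By limma voom Ccl4 did not pass after MCAO (adjusted p = 0.0867). In pontine infarction replicates 1 to 3 Ccl4 had 29.8, 1.57 and 2.17 CPM, against 0, 0.0378 and 0.144 CPM in sham PN replicates 1 to 3 (log2 change 7.34 ± 1.61 SE, edgeR adjusted p = 0.0295). The groups did not overlap in either comparison, and pontine infarction replicate 1 reached the range of the higher MCAO libraries. Without pontine infarction replicate 1 the pontine log2 change of Ccl4 was 4.77 (edgeR adjusted p = 0.0592), and without sham PN replicates 1, 2 and 3 the adjusted p was 0.0972, 0.141 and 0.128. Ccl4 counts were 12.1% and 3.52% of Ccl3 counts in MCAO replicates 1 and 2 and 22.5% in the unnumbered library, and 55.5%, 44.1% and 34.5% in pontine infarction replicates 1 to 3. The proportion of Ccl4 to Ccl3 was thus lower in every MCAO library than in every pontine infarction library (difference in mean log2 ratio -2.15). The exact two-sided permutation p was 0.1, the smallest that 3 libraries against 3 allow, and 0.3 after adjustment over the 3 neighbouring pairs compared, which were chosen with the values known.

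Ccl5 (RANTES), a ligand of Ccr1 and Ccr3 made largely by T cells and also by glia, stood apart from the other ligands, with low levels in all groups. It had 1.73 and 0.148 CPM in MCAO replicates 1 and 2 and 0.870 CPM in the unnumbered library, against 0.527, 0.148 and 0.153 CPM in sham LN replicates 1 to 3 (log2 change 1.67 ± 0.85 SE, edgeR adjusted p = 0.184). In pontine infarction replicates 1 to 3 it had 3.12, 0.561 and 1.83 CPM, against 0.602, 0.680 and 1.08 CPM in sham PN replicates 1 to 3 (log2 change 1.20 ± 0.80 SE, edgeR adjusted p = 0.408). Stroke and sham libraries overlapped at both sites. The T and NK cell marker list summed to 17.3 to 19.4 CPM after MCAO, against 20.3 to 27.3 CPM in sham LN, and to 27.5 to 109 CPM after pontine infarction, against 13.7 to 16.5 CPM in sham PN. Of its 7 tested members 3 rose and 1 fell after MCAO, and 1 rose after pontine infarction. Over all tested genes 12.5% rose and 6.07% fell after MCAO, and 3.21% rose and 0.870% fell after pontine infarction. The 3 that rose after MCAO had 2 to 3 counts each over sham LN and entered the test through the stroke libraries. Cd4, a gene that myeloid cells can also express, made up most of the list's sum in the sham libraries. Among the pontine infarction libraries Cd8a made up most of it only in replicate 3 (73.1 of 109 CPM). Cd4 averaged 8.04 ± 2.36 CPM after MCAO, against 19.9 ± 2.93 CPM in the sham LN group, and was the gene that fell (edgeR adjusted p = 0.0183), while Cd2, Cd8a and Klrk1 rose. Cd8a had 13.2, 2.90 and 73.1 CPM in pontine infarction replicates 1 to 3, against at most 0.0718 CPM in sham PN (edgeR adjusted p = 0.00759). The defining T cell genes Cd3e and Cd3d and the cytotoxic gene Gzmb averaged under 1 CPM in all groups. Gzmb and Cd3d were at 0 counts in MCAO replicate 2 and in pontine infarction replicates 2 and 3. The part of these cells in the Ccl5 values was not tested.

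Ccl6, a ligand of Ccr1 described in rodents and made by myeloid cells, was measurable in every sham library and varied least among the stroke libraries. It had 17.6 and 11.2 CPM in MCAO replicates 1 and 2 and 9.19 CPM in the unnumbered library, against 0.658, 0.593 and 0.650 CPM in sham LN replicates 1 to 3 (log2 change 4.31 ± 0.53 SE, edgeR adjusted p = 0.00143). The highest MCAO library was 1.92-fold above the lowest, where it was 4.64-fold for Ccl3 and 22.4-fold for Ccl2. In pontine infarction replicates 1 to 3 Ccl6 had 9.67, 2.29 and 6.31 CPM, against 0.430, 0.453 and 0.862 CPM in sham PN replicates 1 to 3 (log2 change 3.36 ± 0.52 SE, edgeR adjusted p = 0.00858). No stroke library overlapped its shams. Without sham PN replicates 2 and 3 the edgeR adjusted p was 0.0654 and 0.0626, and by limma voom it was 0.0679 for the pontine comparison. Ccl9, a related rodent chemokine encoded beside Ccl6, had counts of 60.2% and 0.877% of those of Ccl6 in MCAO replicates 1 and 2 and 50.5% in the unnumbered library, and 48.1%, 20.4% and 18.9% in pontine infarction replicates 1 to 3. The Ccl9 share was thus near 0 only in MCAO replicate 2, which had 2 Ccl9 counts beside 228 of Ccl6, and the strokes overlapped (exact two-sided permutation p = 1).

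Ccl20 (MIP-3 alpha), which attracts Ccr6-bearing T cells and dendritic cells and is induced in epithelium and astrocytes by inflammatory cytokines, was at 0 counts in all 6 sham libraries. It had 15.3 and 0.148 CPM in MCAO replicates 1 and 2 and 14.8 CPM in the unnumbered library, from 319, 3 and 307 counts. With the sham LN group set at a floor of 3 counts, close to the upper 95% limit for a count of 0, Ccl20 was at least 309-fold higher in the MCAO group. It had 16.5, 0.210 and 0 CPM in pontine infarction replicates 1 to 3, from 354, 9 and 0 counts, and was at least 103-fold higher in that group with sham PN set in the same way. High Ccl20 was thus found in 3 of the 6 stroke libraries, and the pontine value rested on replicate 1. Neither comparison passed (edgeR adjusted p = 0.0765 after MCAO and 0.180 after pontine infarction). After MCAO it passed without MCAO replicate 2 (edgeR adjusted p = 0.0331), without a filter on low counts (0.0431), with all 6 shams as one control (0.0372) and with the replicate number as a block, which leaves out the unnumbered library (0.00919). With that block it also passed after pontine infarction (edgeR adjusted p = 0.0159). Its receptor gene Ccr6 had 16 counts after MCAO and 1 in sham LN, and 21 after pontine infarction and 1 in sham PN, too few to be tested.

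Ccr1, a receptor of neutrophils, monocytes and activated microglia for Ccl3, Ccl5, Ccl6 and Ccl7, rose after both strokes. It had 41.1 and 7.94 CPM in MCAO replicates 1 and 2 and 25.5 CPM in the unnumbered library, against 0.105, 0.148 and 0.153 CPM in sham LN replicates 1 to 3 (log2 change 7.50 ± 1.08 SE, edgeR adjusted p = 0.00244). In pontine infarction replicates 1 to 3 it had 10.6, 1.36 and 1.16 CPM, against 0.301, 0.113 and 0.287 CPM in sham PN replicates 1 to 3 (log2 change 4.18 ± 0.97 SE, edgeR adjusted p = 0.0369). No stroke library overlapped its shams, although pontine infarction replicates 2 and 3 were far closer to them than replicate 1. The pontine call was lost without pontine infarction replicate 1 (log2 change 2.41, edgeR adjusted p = 0.0834), without sham PN replicates 1, 2 and 3 (0.0972, 0.161 and 0.150), and on the compared libraries alone (0.0581). Ccr1 has a close paralogue, Ccr1l1, and how reads shared between them were counted is not given in the sources used here.

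**Figure D2:**
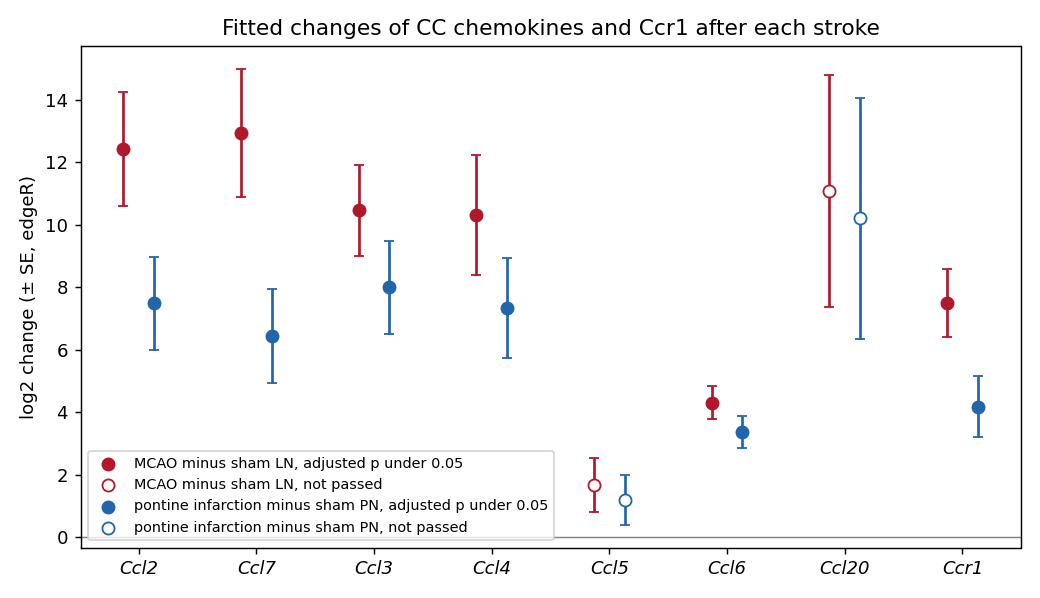
Fitted log2 changes with SE (edgeR) of the 8 genes, for MCAO minus sham LN (red) and pontine infarction minus sham PN (blue), with filled points where the adjusted p was under 0.05. The MCAO point is the higher of the pair for all 8 genes, and the error bars are widest for Ccl20, whose sham libraries held 0 counts, so that its fitted value depends on the prior count. The same dependence holds for Ccl2, Ccl7 and Ccl4 after MCAO.

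MCAO and pontine infarction were then compared in the size of their responses, each against its own shams. The site of the stroke cannot be told apart here from the stroke model, the dissected region or the time after the stroke. The fitted response to MCAO exceeded that to pontine infarction for all 7 genes with a defined difference, and none of these differences passed. By edgeR 0% of 17008 genes passed for this difference, and 1826 (10.7%) had an unadjusted p under 0.05. The difference was 6.50 ± 3.35 for Ccl7, 4.93 ± 3.09 for Ccl2, 3.31 ± 1.44 for Ccr1, 2.97 ± 3.30 for Ccl4, 2.46 ± 2.89 for Ccl3, 0.95 ± 0.69 for Ccl6 and 0.47 ± 1.14 for Ccl5 (log2 ± SE). Each contains the gap of sham LN minus sham PN, negative for Ccl7, Ccl2, Ccl4, Ccl5 and Ccr1 and positive for Ccl3 and Ccl6. It was -3.67 for Ccl7, from 1 against 15 counts, and -2.22 for Ccl2, from 3 against 13. Without sham PN replicate 1 the Ccl2 difference between strokes was 2.005. At an unadjusted p under 0.05 edgeR gave Ccr1 alone (edgeR adjusted p = 0.448), DESeq2 gave Ccl2, Ccl7 and Ccr1, and limma voom gave 0 genes of the set. None of the 3 tools called any of the set after adjustment. DESeq2 called 238 genes of the whole table for this difference and limma voom 0. Without MCAO replicate 2 edgeR called 970 genes of the whole table and 0 of the set. In group means, MCAO was the highest group for every gene but Ccl5, which was highest after pontine infarction. The MCAO and pontine infarction libraries overlapped for all genes but Ccl3, and how often they did so over all tested genes was not determined.

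Between the shams none of the 7 genes with sham counts passed, and 21.3% of all tested genes did. That share is no measure for Ccl2, Ccl7, Ccl3, Ccl4 and Ccr1, which entered the test through the stroke libraries and had 18 or fewer counts over either sham group. At an unadjusted p under 0.05 edgeR gave 0 of 7 (34.0% of all tested genes), limma voom 0 (34.1%) and DESeq2 Ccl7 alone (35.4%), again with none of the set after adjustment. Ccl5 averaged 0.276 ± 0.217 CPM in sham LN and 0.786 ± 0.255 CPM in sham PN (SD, n = 3 each), with every sham LN library below every sham PN library, as for 29.2% of all tested genes (log2 change -1.45 ± 0.85 SE, edgeR adjusted p = 0.258). Ccl6 averaged 0.634 ± 0.0357 CPM in sham LN and 0.582 ± 0.243 CPM in sham PN (log2 change 0.12 ± 0.52 SE, edgeR adjusted p = 0.907), and its sign turned without sham PN replicate 1 or 2. Ccr1 averaged 0.135 ± 0.0262 CPM in sham LN and 0.234 ± 0.105 CPM in sham PN (log2 change -0.79 ± 1.20 SE, edgeR adjusted p = 0.697).

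Libraries of one stroke group differed in a shared order. MCAO replicate 1 was the highest of its group for 8 of 8 genes, and MCAO replicate 2 the lowest for 7, the exception being Ccl6, which was lowest in the unnumbered library. Pontine infarction replicate 1 was the highest for 8 of 8, and replicate 2 the lowest for 6, with Ccl20 and Ccr1 lowest in replicate 3. The median log2 difference of the 8 genes from the sham mean was 8.28 in MCAO replicate 1, 5.09 in MCAO replicate 2 and 7.71 in the unnumbered library. In the pontine group this median was 7.64, 3.01 and 3.77 in replicates 1 to 3. Pontine infarction replicate 1 was therefore closer in this median to the unnumbered MCAO library than to the other libraries of its own group.

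**Figure D3:**
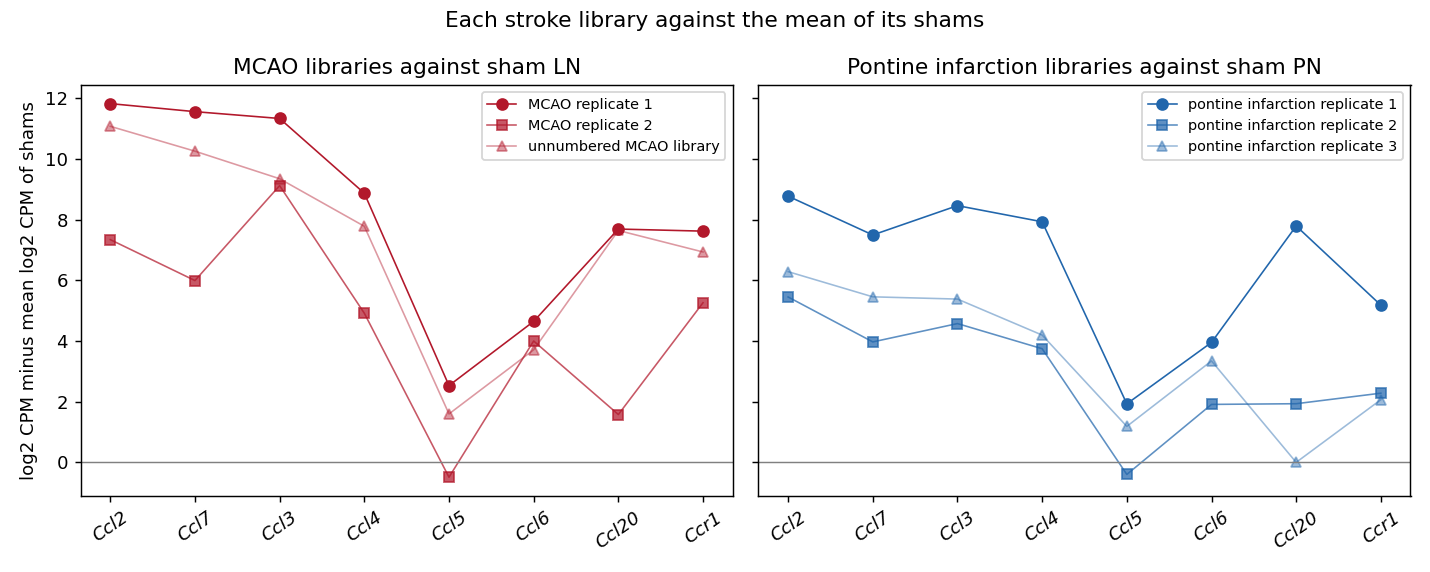
Log2 CPM (prior count 2) of each stroke library minus the mean log2 CPM of its shams, for the 8 genes, with MCAO libraries on the left and pontine infarction libraries on the right. MCAO replicate 2 falls below the other MCAO libraries except at Ccl6, and pontine infarction replicate 1 lies above both other pontine libraries at every gene.

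Some marker sums of leukocytes followed the order of these libraries and others did not. Of 12 neutrophil markers 8 were tested, and 8 rose after MCAO and 4 after pontine infarction. Beside this and the lists below, 12.5% of all tested genes rose and 6.07% fell after MCAO. After pontine infarction 3.21% rose and 0.870% fell. S100a8, S100a9, Cxcr2, Mmp8 and Camp had 5, 5, 1, 5 and 2 counts over sham LN. They entered the test through the stroke libraries, so the share is no measure for them. The sum of the 12 neutrophil markers was 3178 CPM in MCAO replicate 1, 116 CPM in replicate 2 and 962 CPM in the unnumbered library, against 7.32 to 8.78 CPM in sham LN. It was 1101, 114 and 114 CPM in pontine infarction replicates 1 to 3, against 5.10 to 8.34 CPM in sham PN. Lcn2, which reactive astrocytes also make, contributed 2358 CPM in MCAO replicate 1, 32.8 CPM in replicate 2 and 427 CPM in the library without a number. It contributed 871, 88.0 and 57.8 CPM in pontine infarction replicates 1 to 3. Without Lcn2 the other 11 markers summed to 821 and 83.1 CPM in MCAO replicates 1 and 2 and 535 CPM in the unnumbered library, against 6.65 to 7.89 CPM in sham LN. They summed to 230 CPM, 26.3 CPM and 56.4 CPM in pontine infarction replicates 1 to 3, against 3.95 to 5.85 CPM in sham PN. With or without Lcn2 the MCAO libraries were in the same order as for Ccl2, Ccl4 and Ccr1. Elane and Fpr1 were at 0 in all 6 sham libraries. Of 12 monocyte and macrophage markers 9 rose after MCAO and 8 after pontine infarction. Their sum was 2460 CPM in MCAO replicate 1, 426 CPM in replicate 2 and 1156 CPM in the library without a number, against 168 to 211 CPM in sham LN, and 1530, 599 and 1834 CPM in pontine infarction replicates 1 to 3, against 188 to 216 CPM in sham PN. Pontine infarction replicate 3 was thus the highest of its group for these markers and for none of the 8 genes of the set. Of 9 tested markers of resting microglia 1 fell after MCAO and 0 passed after pontine infarction, and their sum was 202 to 265 CPM after MCAO, against 268 to 315 CPM in sham LN, and 210 to 670 CPM after pontine infarction, against 280 to 298 CPM in sham PN. Of 6 tested dendritic cell markers 4 rose after MCAO and 1 after pontine infarction, and their sum was 32.9 to 50.1 CPM after MCAO, against 15.6 to 22.9 CPM in sham LN, and 39.1 to 63.2 CPM after pontine infarction, against 28.9 to 31.1 CPM in sham PN. The 4 that rose after MCAO had 1 to 11 counts each over sham LN and entered the test through the stroke libraries. The red cell genes summed to 57.8 to 90.7 CPM after MCAO, against 11.3 to 97.3 CPM in sham LN, and to 26.3 to 127 CPM after pontine infarction, against 20.9 to 24.5 CPM in sham PN. The part of each cell type in the chemokine changes was not tested.

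Some other CC ligands and receptors rose as well. Of 23 further family genes examined 11 had enough counts, of which 4 rose after MCAO and 2 after pontine infarction, beside 12.5% and 3.21% of all tested genes, and 0 fell in either comparison. Among those that rose, Ccl12, Ccr7 and Ccl9 had 1, 4 and 14 counts over sham LN and 0, 0 and 12 over sham PN. They entered the test through the stroke libraries, so the all-gene share is no measure for them. The median log2 change of the 11 genes was 0.40 after MCAO and -0.35 after pontine infarction. Ccrl2, an atypical receptor that binds the attractant chemerin and does not signal through G proteins, averaged 9.76 ± 3.29 CPM after MCAO, against 0.224 ± 0.197 CPM in the sham LN group (log2 change 5.34 ± 0.64 SE, edgeR adjusted p = 0.00134), and 2.73 ± 1.34 CPM after pontine infarction and 0.447 ± 0.142 CPM in sham PN (log2 change 2.60 ± 0.58 SE, edgeR adjusted p = 0.0322). Ccl12, a monocyte attractant of the Ccl2 cluster, had 45 counts over MCAO and 1 over sham LN, a ratio of 66.4 (95% counting interval 11.3 to 2680, edgeR adjusted p = 0.017), and 50 counts over pontine infarction and 0 over sham PN, at least 14.2-fold higher with sham PN set at 3 counts (edgeR adjusted p = 0.0392). Ccl11, an eosinophil attractant encoded between Ccl7 and Ccl12, had 1 count over MCAO and 5 over sham LN, and 0 over pontine infarction and 0 over sham PN. The rise of Ccl2, Ccl7 and Ccl12 was thus not shared by every gene of that cluster, as far as these few counts show.

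Ccr7, the receptor that guides dendritic cells and T cells to lymph nodes, averaged 5.79 ± 5.81 CPM after MCAO, against 0.0423 ± 0.0381 CPM in the sham LN group (log2 change 6.91 ± 1.44 SE, edgeR adjusted p = 0.0126). After pontine infarction Ccr7 had 111 counts, against 0 in sham PN, and did not pass (edgeR adjusted p = 0.0585). Ccl9 averaged 5.12 ± 5.28 CPM after MCAO, against 0.146 ± 0.0686 CPM in the sham LN group (edgeR adjusted p = 0.0269), with MCAO replicate 2 inside the sham range. Ccrl2 after MCAO passed whichever of the 6 compared libraries was left out. With 1 library left out, the number of all genes past the threshold ran from 1136 to 6170 after MCAO and from 6 to 965 after pontine infarction. Among these 11 genes it was 8 without MCAO replicate 2, 2 without MCAO replicate 1, the unnumbered library or sham LN replicate 2, and 1 without sham LN replicate 1 or 3. After pontine infarction it was 3 without replicate 2, 1 without replicate 3 and 0 without replicate 1 or any single sham PN library. Ccr7 was lost without sham LN replicate 1 or 3, and Ccl12 and Ccl9 after MCAO were lost in 5 of 6 such fits each (highest edgeR adjusted p = 0.066 and 0.0935).

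Of the scavenging receptors none passed after either stroke. Ackr2, which removes inflammatory CC chemokines, was higher in sham LN than in sham PN, at 9.16 ± 3.39 CPM in sham LN and 0.458 ± 0.149 CPM in sham PN (log2 change 4.31 ± 0.50 SE, edgeR adjusted p = 0.000135), and this passed without each sham library in turn. After MCAO Ackr2 averaged 4.57 ± 2.53 CPM (edgeR adjusted p = 0.115 against sham LN, with overlap), and after pontine infarction 0.308 ± 0.0758 CPM (log2 change -0.56 ± 0.51 SE against sham PN, edgeR adjusted p = 0.554). Ackr1, a chemokine carrier of venules and red cells, averaged 48.2 ± 6.81 CPM after MCAO, against 36.4 ± 9.82 CPM in the sham LN group (edgeR adjusted p = 0.256). Ackr4, the scavenger of Ccl19 and Ccl21, averaged 0.586 ± 0.360 CPM after MCAO, against 1.74 ± 0.913 CPM in the sham LN group (log2 change -1.57 ± 0.55 SE, edgeR adjusted p = 0.0695).

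**Figure D4:**
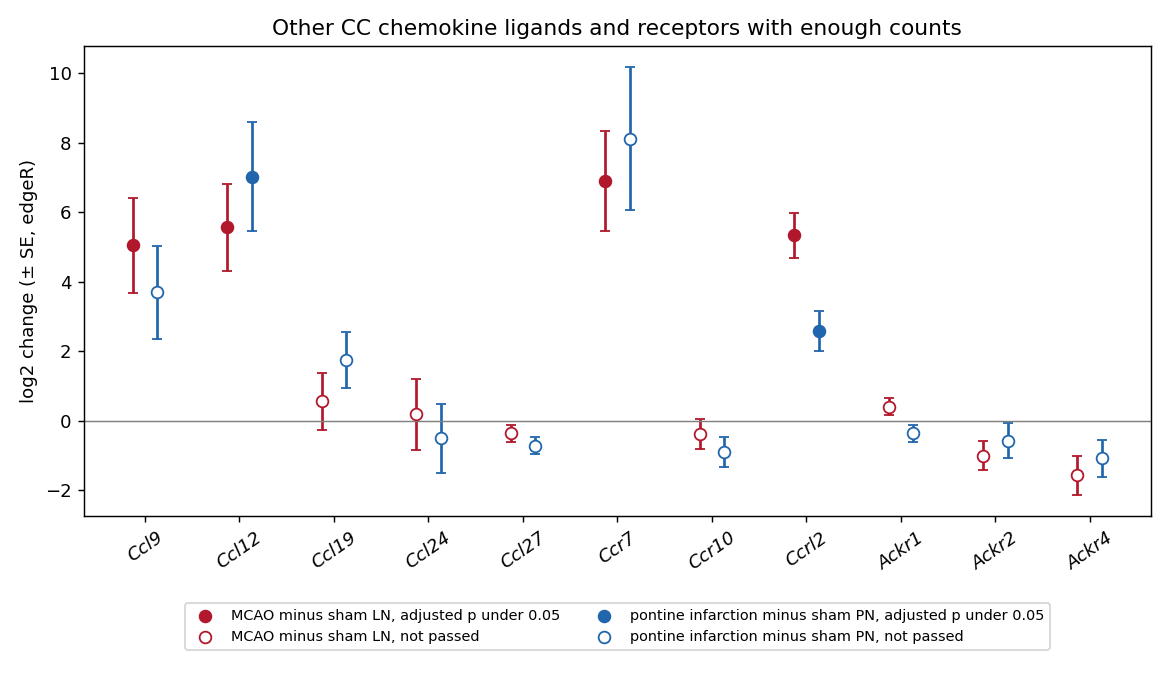
Fitted log2 changes with SE (edgeR) of the 11 further CC family genes with enough counts, for MCAO minus sham LN (red) and pontine infarction minus sham PN (blue), filled where the adjusted p was under 0.05. Ccrl2 and Ccl12 are filled for both strokes, Ccl9 and Ccr7 for MCAO, and the fitted value of Ccr7 and Ccl12 after pontine infarction rests on sham libraries at 0 counts.

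Genes that carry or restrain chemokine receptor signals were examined as a list of 29, all tested, of which 11 rose and 0 fell after MCAO and 7 rose and 0 fell after pontine infarction. Of all tested genes 12.5% rose and 6.07% fell after MCAO, and 3.21% rose and 0.870% fell after pontine infarction. The median log2 change was 0.29 after MCAO and 0.35 after pontine infarction. Fgr, a Src family kinase of myeloid cells, averaged 88.4 ± 68.1 CPM after MCAO, against 1.36 ± 0.231 CPM in the sham LN group (log2 change 6.02 ± 0.75 SE, edgeR adjusted p = 0.00154). Rac2, the small GTPase of blood cell migration, rose with a log2 change of 4.64 ± 0.72 after MCAO, and Vav1, an exchange factor for Rac proteins, with 3.10 ± 0.51. Lyn, a Src family kinase, and Pik3r5, a regulatory subunit of the G protein-coupled PI3 kinase gamma, rose after MCAO as well, and each of these 5 passed without any single compared library. Pik3cg, the catalytic subunit of that kinase, averaged 36.0 ± 14.0 CPM after pontine infarction and 6.21 ± 0.625 CPM in sham PN (log2 change 2.53 ± 0.39 SE, edgeR adjusted p = 0.00858), and Dock2, a Rac activator of migrating leukocytes, 33.2 ± 19.3 CPM after pontine infarction and 6.61 ± 0.359 CPM in sham PN (log2 change 2.33 ± 0.38 SE, edgeR adjusted p = 0.0114). The MCAO count was 7 without MCAO replicate 1. The pontine count was 4 without sham PN replicate 1 and 0 without sham PN replicate 2 or 3, and 4 by limma voom. Gnai2 and Arrb2, an inhibitory G protein subunit and an arrestin that most cells express, did not pass in either comparison.

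Inducers of chemokine transcription and proteins that shorten chemokine messenger RNA were taken as a list of 13. Tnf had too few counts to be tested, with 10 counts over MCAO and 2 over sham LN, and 8 over pontine infarction and 0 over sham PN. Of the other 12, 12 rose after MCAO and 2 after pontine infarction, beside the same 12.5% and 3.21% of all tested genes, at median log2 changes of 3.88 and 2.06. Il1b, the interleukin that induces Ccl2 and Ccl20 in glia, averaged 188 ± 162 CPM after MCAO, against 0.120 ± 0.153 CPM in the sham LN group (log2 change 10.66 ± 2.05 SE, edgeR adjusted p = 0.00697). Il1b had 88.1, 2.20 and 0.971 CPM in pontine infarction replicates 1 to 3, against 0.730, 0.340 and 0 CPM in sham PN replicates 1 to 3, with replicate 1 far above the others as for Ccl20 (edgeR adjusted p = 0.0601). Zfp36 and Zc3h12a, which destabilise cytokine messages, averaged 167 ± 126 and 41.5 ± 32.6 CPM after MCAO, against 7.60 ± 1.32 and 1.28 ± 0.201 CPM in the sham LN group (log2 changes 4.45 ± 0.75 and 5.01 ± 0.92, edgeR adjusted p = 0.00405 and 0.00583). The genes that rose after pontine infarction were Fosl1, an AP-1 subunit, and Rel, an NF-kB subunit, with log2 changes of 4.47 ± 0.93 for Fosl1 and 1.62 ± 0.40 for Rel (edgeR adjusted p = 0.0246 and 0.0458). Il1b and Fosl1 had 10 and 15 counts over sham LN and 26 and 14 over sham PN. Both entered the test through the stroke libraries, so the all-gene shares are no measure for them. The MCAO count fell to 7 without MCAO replicate 1 or sham LN replicate 3. The pontine count was 7 without pontine infarction replicate 2, 1 without replicate 3 and 0 without replicate 1 or any single sham PN library.

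Across the 12 libraries the genes with the most similar pattern were found for each member. Likeness was the root mean square difference of log2 CPM, each gene centred on its own mean. The measure is not scaled to the size of a gene's changes, so its values do not compare between members. Slpi, a protease inhibitor of neutrophils and epithelium, was nearest to Ccl2 (0.83) and Ccl3 (0.82), and Lcn2, an iron-binding protein of neutrophils and reactive astrocytes, was nearest to Ccl7 (0.84). Ccl7 itself was the gene second nearest to Ccl2 (0.95). The second nearest was Slpi for Ccl7 (0.92), Mcemp1 for Ccl3 (0.85), Napsa for Ccl4 (0.66), Birc3 for Ccr1 (0.55) and LOC103691881 for Ccl6 (0.46). Cd14, the monocyte co-receptor for endotoxin, was nearest to Ccl4 (0.63), Aoah, an enzyme that inactivates endotoxin, to Ccr1 (0.54), and Plek, a protein of platelets and leukocytes, to Ccl6 (0.46). Ccl20 lay nearest to the neutrophil chemokine Cxcl6 (0.86) and to Csf3, the neutrophil growth factor (0.95). Ccl5 lay nearest to Phyhd1 and to Cryab, a small heat shock protein (0.45 and 0.47).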

How the data were processed

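Brain RNA of 12 rat libraries was sequenced. The deposited table holds unscaled gene counts. The submitters' processing notes name HISAT2 and the build Rnor_6.0. The sources used here do not give the counting program, the annotation or the strandedness. The counts went into edgeR 4.0.16 (R 4.3.3), where filterByExpr with min.count 10 and min.total.count 15 removed low genes. One quasi-likelihood fit with TMM factors and a mean per group covered the 12 libraries. Tests are two-sided, with Benjamini-Hochberg adjustment over all tested genes. An SE is the size of a log2 change divided by the root of its F statistic. The unnumbered MCAO library was assigned to its group by the letters of its column. The genes and lists were chosen with earlier results of these data known. Every member is described, and of the other lists up to 6 genes past the threshold with the smallest p per comparison and the 2 nearest genes per member follow a rule, while further genes were named after their values were seen. Alternatives were DESeq2 1.42.0 and its size factors, limma voom 3.58.1, no filter, the compared libraries alone, a replicate block, the 6 shams pooled as one control, and each library left out in turn. The procedure was also run on simulated data, with smaller changes and higher sham levels than most of these genes have. That run therefore does not test the procedure for them. Some genes of the further lists are not reported here.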

Additional observations from a re-analysis of the deposited data

How the results depend on the processing

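With 1 compared library left out, 6 to 7 of the 8 genes passed after MCAO, 0 to 6 after pontine infarction, 0 to 0 for the difference between strokes and 0 to 0 between shams. By limma voom 3 passed after MCAO and 0 after pontine infarction. Of 111 values of single genes under alternatives in the MCAO comparison 104 kept their direction and side of the threshold, 3 no longer passed and 4 newly passed, and in the pontine comparison these counts were 80, 30 and 1, with 0 reversed in both. Signs turned for differences that did not pass. Between shams Ccl2 turned to 0.71 without sham PN replicate 1 (range -3.12 to 0.71 with 1 library left out), Ccl3 to -0.92 by limma voom and to -4.08 without sham LN replicate 1 (range -4.08 to 0.92), and Ccl6 to -0.055 and -0.037 without sham PN replicates 1 and 2 (range -0.055 to 0.52). The difference between strokes turned to -0.56 for Ccl5 without MCAO replicate 1 (range -0.56 to 1.37). The cause of these changes was not tested. Over all genes, the counts past the threshold ran from 1136 to 6170 after MCAO and from 6 to 965 after pontine infarction with 1 library left out, against 3163 and 694 with all libraries. On the compared libraries alone 1354 genes passed after MCAO, and DESeq2 called 1738 after pontine infarction. Limma voom called 315 genes after pontine infarction, and the compared sham libraries alone gave 6365 between shams, against 3625. Of the further CC family genes, against 4 after MCAO, limma voom gave 2 and the compared libraries alone 1, and against 2 after pontine infarction limma voom gave 0, the compared libraries 1 and all 6 shams 5. Of the inducers and message regulators, against 2 after pontine infarction, no filter gave 6, DESeq2 9, limma voom 0, the compared libraries 4 and all 6 shams 7. The replicate number as a block on the 11 numbered libraries gave 7 genes after MCAO and 7 after pontine infarction, 0 for the difference and 0 between shams. The same libraries without the block, an alternative chosen after seeing the data, gave 6 and 4. The numbers were not taken as pairs in the main fit, because nothing in the labels says that they pair animals. Correlations of same-numbered libraries in their deviations from group means ran from 0.043 to 0.154. Of the pontine and sham PN libraries 6 of 6 correlated best with their own number. These matches are not independent, because the same correlations were read from the pontine side and from the sham PN side. MCAO replicates 1 and 2 also correlated best with the sham LN library of their number (0.104 and 0.0426). Whether the numbers mark pairs cannot be told from the labels, and the pontine count depends on the choice. Sham levels of Ccl2, Ccl7, Ccl4 and Ccl20 rest on 0 to 15 counts per group, and depth limits their fold changes.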
